A study of Mus musculus with 6 samples.

Results

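The genes that coat, grow and break down lipid droplets were examined in the livers of mice lacking hepatocyte ferroportin and of their littermates. They comprise 10 of the 45777 genes in the deposited table, found there by their symbols: the perilipins Plin2, Plin3, Plin4 and Plin5, the CIDE genes Cidea, Cideb and Cidec, the FITM genes Fitm1 and Fitm2, and the lipase gene Pnpla2. Of these, 9 were among the 17274 genes tested, and Cidea had too few reads. Liver RNA of 6 male C57BL/6 mice on a high-fat diet (HFD), which the study's methods start in young adults, was sequenced with 1 library per mouse. Littermates (LT, 3 mice) carried Fpn flox/flox alleles without Cre. Fpn-LKO mice (3 mice) carried Alb-Cre with Fpn flox/flox, so the albumin promoter drove Cre in hepatocytes. Both groups thus share the floxed allele, the HFD and, per the labels, 1 batch. The floxed allele was backcrossed to C57BL/6J, per the methods. The time on the diet of these livers is not given in the labels.

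A lipid droplet is a core of triglyceride and sterol esters under a single layer of phospholipid, and the proteins on that layer decide whether the core grows or is consumed. Perilipins cover the surface and keep lipases away from it, CIDE proteins sit where droplets touch and pass lipid from the smaller to the larger, and FITM proteins act in the endoplasmic reticulum when droplets form. Adipose triglyceride lipase, the product of Pnpla2, takes the first fatty acid off a triglyceride. In the fatty liver, Plin2 is the classical droplet coat gene of hepatocytes.

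The starts of Plin2, Plin4 and Plin5 are shown because Plin2 was the most abundant member, Plin4 differed most between the groups, and Plin4 and Plin5 are neighbours with unlike values. Plin4 lay at chr17:56100587-56109948 and Plin5 at chr17:56111597-56117606, both on the minus strand and 1648 bases apart, with Plin3 161355 bases beyond Plin5. Plin2 lay at chr4:86626910-86670217, also on the minus strand. Each line gives the 250 bases before the start of the RefSeq transcript in GRCm38.p6, in the direction of transcription, at chr4:86670060-86670309 for Plin2, chr17:56109783-56110032 for Plin4 and chr17:56117549-56117798 for Plin5. Plin5 has 2 starts in the RefSeq table, and the upstream one is shown. The annotated genes reach past these starts, so part of each window may be transcribed from a start further upstream. Capitals mark the letters AGGTCA on either strand (TGACCT when read from the other), GGGCGG, and TATAA on the sense strand.
Plin2: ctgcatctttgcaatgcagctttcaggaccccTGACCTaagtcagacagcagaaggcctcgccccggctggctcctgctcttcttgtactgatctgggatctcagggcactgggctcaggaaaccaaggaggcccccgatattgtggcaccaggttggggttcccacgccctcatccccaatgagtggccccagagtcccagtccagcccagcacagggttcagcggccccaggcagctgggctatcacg
Plin4: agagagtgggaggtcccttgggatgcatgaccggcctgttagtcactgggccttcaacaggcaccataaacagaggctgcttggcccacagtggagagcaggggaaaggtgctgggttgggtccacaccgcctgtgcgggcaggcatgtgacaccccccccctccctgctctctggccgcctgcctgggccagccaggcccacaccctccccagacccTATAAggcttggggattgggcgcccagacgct
Plin5: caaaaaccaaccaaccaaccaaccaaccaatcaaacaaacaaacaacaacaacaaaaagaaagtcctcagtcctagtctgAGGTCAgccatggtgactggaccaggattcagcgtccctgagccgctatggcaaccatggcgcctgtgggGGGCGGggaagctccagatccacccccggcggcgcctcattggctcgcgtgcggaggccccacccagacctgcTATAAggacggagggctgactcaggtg

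AGGTCA is the hexamer that nuclear receptors such as the PPARs read, GGGCGG is the GC box of Sp1, and TATAA is the core of a TATA box. None of the searched words contains another. Plin2 held AGGTCA on the strand opposite to the gene, with 212 bases between the hexamer and the start. Plin5 held it on the sense strand with 164 bases to the start, followed by GGGCGG with 94 bases and TATAA with 22 bases to the start. The window of the other Plin5 start held GGGCGG at 2 places and neither AGGTCA nor TATAA. Plin4 held TATAA alone, with 27 bases to the start. Among 32851 RefSeq promoter windows of this length, 14% held AGGTCA on either strand, 32.7% held GGGCGG, 6.02% held the E-box CACGTG and 16% held TATAA on the sense strand. Over the 11 windows of the 9 members that matched the promoter table, AGGTCA was in 2, GGGCGG in 6, TATAA in 3 and CACGTG in 0. These are matches of letters and not evidence of binding.

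The libraries held between 43086184 and 47778683 reads on genes, and values are CPM, reads scaled to the library total after TMM scaling, with the deposited FPKM where genes are set against each other. Slc40a1, the deleted ferroportin gene, had 143, 143 and 176 CPM in libraries labelled Fpn-LKO against 154, 180 and 126 CPM in the LT livers. Its transcript thus showed no fall with the deletion (fold 1.01, 95% interval 0.774 to 1.31), and the directions below rest on the labels. The interval does not exclude a fall within it. The paper reports loss of FPN from hepatocytes of this line, in primary hepatocytes and by staining of liver. A pair of iron-responsive genes, chosen after their values were seen, did separate the labelled groups without overlap. So did 10.6% of all tested genes, and a pair chosen in this way is no test of the labels. Tfrc, the transferrin receptor gene that is known to fall when cells hold more iron, had 13.1, 17.2 and 18.9 CPM in Fpn-LKO against 35.3, 28.0 and 52.6 CPM in the LT livers (log2 fold change -1.24, adjusted p = 0.570 by the edgeR test). Ftl1, which encodes the ferritin light chain of the iron store, had 2928, 2707 and 3266 CPM in Fpn-LKO against 2029, 2055 and 1712 CPM in the LT livers (log2 fold change 0.62, adjusted p = 0.926 by the edgeR test). Hepatocyte markers such as Alb summed to 80826 to 98356 CPM, as the labelled tissue requires. Of 7 adipocyte markers, 6 had no read in any library, the perilipin of fat cells Plin1 among them, and Cfd had 20, 0 and 4 reads in LT and 96, 5 and 30 reads in Fpn-LKO. Ucp1 and all 5 pancreas markers had no read, as did 4 of 6 skeletal muscle and 3 of 4 heart muscle markers. The other brown fat markers, Cox7a1 and Elovl3, brought their list to 22.5 to 94.9 CPM, nearly all of it Elovl3. The 4 lists of other resident or blood cells also varied by library. Their summed levels ran from 239 to 510 CPM for Kupffer cells, 378 to 450 CPM for stellate cells and fibroblasts, 233 to 300 CPM for endothelial cells and 351 to 1243 CPM for blood. RNAs without a poly(A) tail took 3.29% to 10.2% of the reads. In whole liver, fewer cells of a type and less RNA per cell cannot be told apart.

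No member passed the adjusted threshold of 0.05 between the genotypes, where 0.0232% of all tested genes did (4 of 17274, quasi-likelihood test of edgeR, adjusted by Benjamini-Hochberg). DESeq2 and edgeR's exactTest also called 0 members, where they called 0.417% and 0.365% of all genes. Of the 9 members tested, 1 had an unadjusted p under 0.05, Plin4, against 4.8% of all genes, which divides into 2.62% higher and 2.19% lower in Fpn-LKO. The fitted log2 fold change was above 0 for 8 members and below 0 for Pnpla2, whereas 49.4% of all genes lay above 0. The median over the members was 0.27, and over all genes it was -0.0040. None of the 9 members separated the groups without overlap, which 10.6% of all genes did (5.25% higher and 5.34% lower). The smallest p that exact permutation of 3 against 3 livers allows is 0.1.

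**Figure D1:**
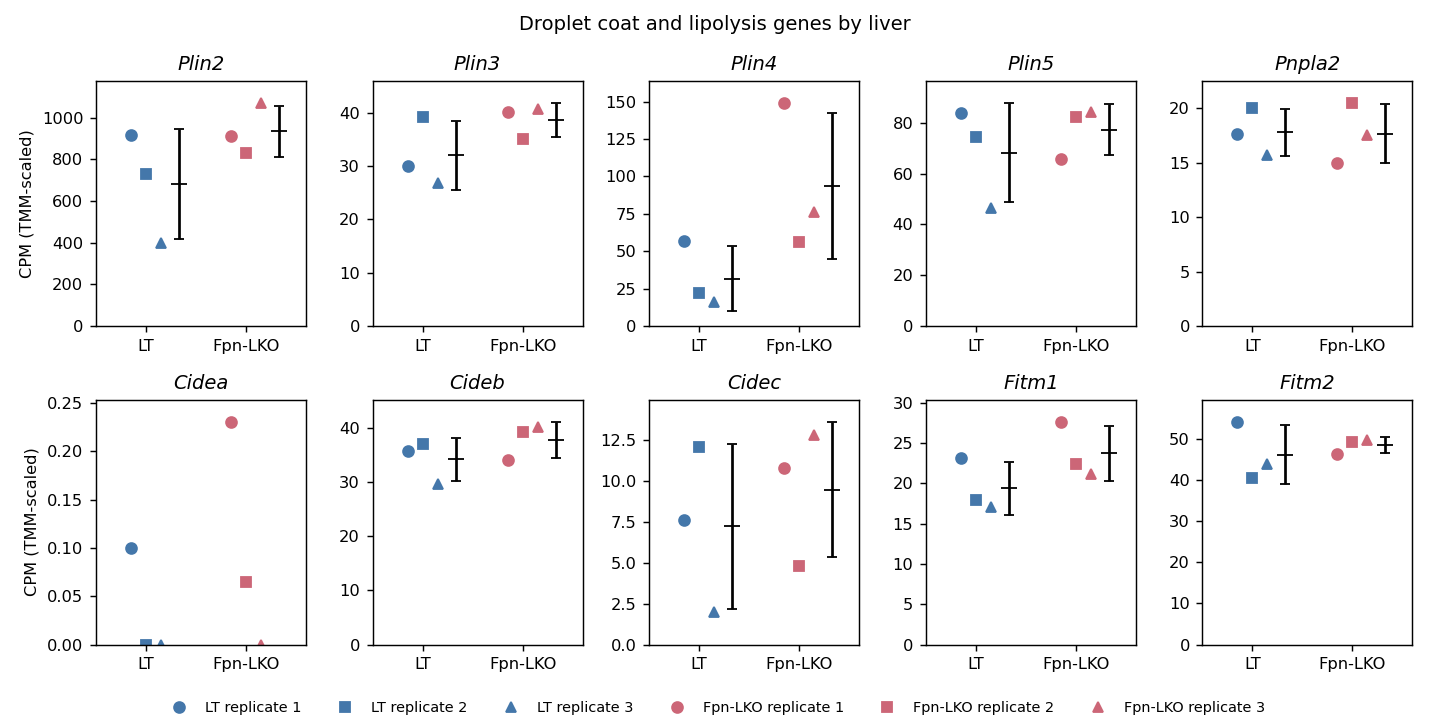
Level of each member in each liver, in TMM-scaled CPM (vertical axis, from 0, own scale per gene), for 3 LT livers in blue and 3 livers labelled Fpn-LKO in red, with the mean and SD in black except for Cidea. The groups overlap for every member, and LT replicate 3 (blue triangle) is the lowest liver for 7 of the 9 members tested.

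Plin2, the coat protein of most non-adipose cells, had levels of 917, 730 and 397 CPM in the LT livers, in the order of their replicate numbers, and of 909, 828 and 1068 CPM in the Fpn-LKO livers. LT replicate 3 stood far below the other livers, and LT replicate 1 was above 2 of the 3 Fpn-LKO livers. Group means were 681 ± 264 CPM for LT and 935 ± 122 CPM for Fpn-LKO (SD, n = 3 each), a fold of 1.37 with a 95% interval from 0.853 to 2.21 (adjusted p = 0.982 by the edgeR test). The log2 fold change of 0.46 became 0.73 without LT replicate 1 and 0.18 without LT replicate 3. Plin2 transcripts match Gm12551 over a stretch of 416 bases at 90% identity or more. No gene of that symbol is among the deposited counts, so where reads of this stretch were placed is not known.

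Plin4, a perilipin with a long repeated amphipathic stretch, spread most widely among the members. It had 57.0, 22.0 and 16.3 CPM in the LT livers against 149, 56.0 and 76.4 CPM in Fpn-LKO, from 675 to 7105 reads, so counting error was small beside the 9.13-fold range. Fpn-LKO replicate 1 was the highest liver, and Fpn-LKO replicate 2 lay just under LT replicate 1, the only crossing of the groups. LT averaged 31.8 ± 22.1 CPM and Fpn-LKO 93.8 ± 48.9 CPM (SD, n = 3 each), a fold of 2.95 with a 95% interval from 1.25 to 6.96. The unadjusted p was 0.0201, the adjusted p was 0.982 by the edgeR test and the exact two-sided permutation p was 0.2. By unadjusted p, Plin4 ranked 339 of 17274 genes. Without LT replicate 1 the fold was 4.90 (unadjusted p = 0.00212, adjusted p = 0.840 by the edgeR test), and its log2 value lay between 1.06 and 2.29 when each liver was left out in turn. Fpn-LKO replicate 1 was also highest for the adipocyte marker Cfd (96 reads) and for Cidea (11 reads). The 6 other adipocyte markers of the 7 listed had no read in this or any library. The same liver held the largest share of RNAs without a poly(A) tail as well, and the part of either in the Plin4 value was not tested. Without that liver the log2 fold change of Plin4 was 1.06, with a 95% interval from -0.16 to 2.27.

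Plin5, the perilipin of oxidative tissues that ties droplets to mitochondria, did not share the range of its neighbour. Its levels were 83.9, 74.2 and 46.4 CPM in the LT livers against 65.7, 82.1 and 84.2 CPM in Fpn-LKO, which overlapped throughout. The log2 fold change was 0.18 (95% interval -0.33 to 0.70), and -0.03 without LT replicate 3. Plin3, the broadly expressed perilipin that binds nascent droplets, had 30.0, 39.3 and 26.9 CPM in the LT livers against 40.1, 35.0 and 40.8 CPM in Fpn-LKO. Its log2 fold change was 0.27 (95% interval -0.10 to 0.64). Plin3 transcripts share stretches of up to 154 bases at 90% identity or more with 875 other genes, so its count is less certain than that of Plin4 or Plin5, for which no such copy was found.

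Cidec, whose product drives droplet fusion and whose level is known to follow liver fat, was low and variable, with 7.57, 12.1 and 2.01 CPM in the LT livers against 10.8, 4.82 and 12.8 CPM in Fpn-LKO. Both groups held a low liver, LT replicate 3 and Fpn-LKO replicate 2, and the highest level was 6.36-fold the lowest. The log2 fold change of 0.39 had a 95% interval from -1.01 to 1.80, and it was 0.98 without LT replicate 2 and -0.05 without LT replicate 3. Cideb, the CIDE gene of hepatocytes that acts in VLDL loading, was by contrast even, with 35.8, 37.0 and 29.6 CPM in the LT livers against 34.0, 39.1 and 40.2 CPM in Fpn-LKO. Its log2 fold change was 0.15 (95% interval -0.15 to 0.45). Cideb shares 1136 of its 1488 exonic bases with Nop9 on the opposite strand, and the strand setting of the counting is not given in the sources used here, so its level is uncertain. Nop9 had 15.5 to 18.9 CPM.

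Cidea, the CIDE gene of brown fat, had 5, 0 and 0 reads in LT and 11, 3 and 0 reads in Fpn-LKO. A count of 0 allows up to 0.0693 and 0.0725 CPM in LT replicates 2 and 3 and 0.0647 CPM in Fpn-LKO replicate 3, for counting error only. A difference was not detectable at this depth, and no fold is given.

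Neither FITM gene passed the test. Fitm1, the form best known from muscle, had 23.2, 17.9 and 17.1 CPM in the LT livers against 27.7, 22.4 and 21.2 CPM in Fpn-LKO, with LT replicate 1 above 2 of the Fpn-LKO livers. Its log2 fold change was 0.29 (95% interval -0.09 to 0.68), and it shares 109 exonic bases with Gm15932 on the opposite strand. Fitm2, the widely expressed form, had 54.3, 40.5 and 43.9 CPM in the LT livers against 46.4, 49.4 and 49.95 CPM in Fpn-LKO, with the Fpn-LKO livers inside the LT range. Its log2 fold change was 0.07 (95% interval -0.23 to 0.38), and its transcripts share stretches of up to 229 bases with 182 other genes.

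Pnpla2 had nearly equal means. The levels were 17.7, 20.02 and 15.7 CPM in the LT livers against 15.0, 20.5 and 17.5 CPM in Fpn-LKO, so the groups covered nearly the same range. The fold was 0.993, and its 95% interval from 0.772 to 1.28 does not show that the groups were alike within less than that. The adjusted p was 0.995 by the edgeR test.

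**Figure D2:**
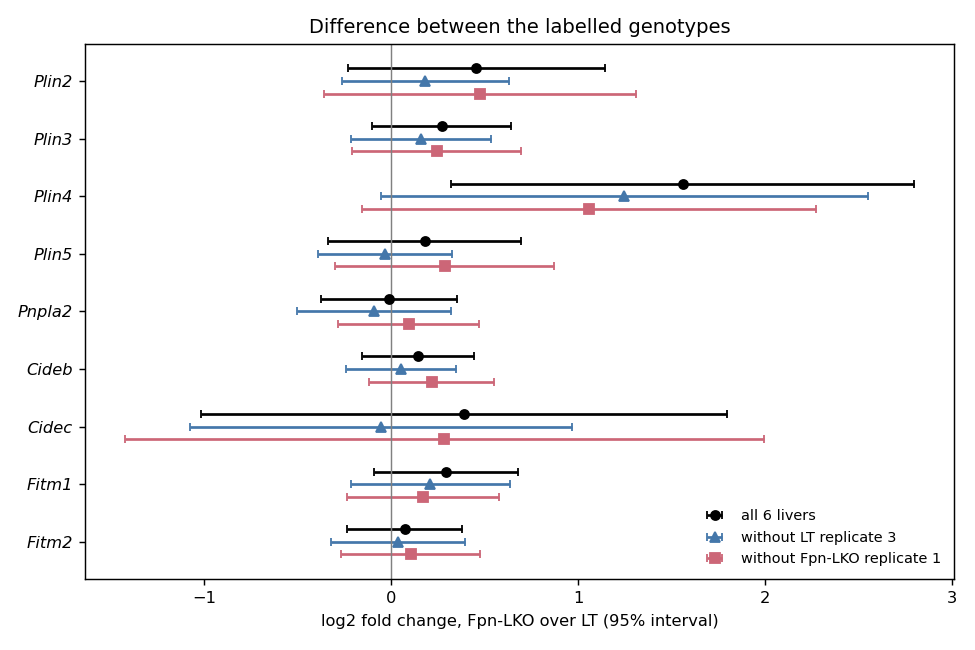
Log2 fold change of each tested member, libraries labelled Fpn-LKO over LT (horizontal axis), with 95% intervals from the edgeR quasi-likelihood test, for all 6 livers (black), without LT replicate 3 (blue) and without Fpn-LKO replicate 1 (red). With all 6 livers only the Plin4 interval leaves out 0, and without either liver it includes 0.

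The direction shared by most members rested in part on LT replicate 3. It was the lowest liver for 7 of the 9 members, whereas it was the lowest for 18.7% of all tested genes, and it lay below the mean of the 6 livers for 9 of 9. Its median distance from that mean was -0.40 on the log2 scale. Fpn-LKO replicate 3 was the highest liver for 5 members, against 17.9% of all genes. Reads on the members made up 0.0566% of the library of LT replicate 3 and 0.0998% to 0.137% of the others. Most of these reads were from Plin2 in every library (16406 of 24593 in LT replicate 3), so this share mainly repeats the Plin2 level. Without LT replicate 3, 6 members had a log2 fold change above 0 and 3 below, with a median of 0.05, and 0 had an unadjusted p under 0.05. Other livers mattered as well. The unadjusted p of the edgeR test was 0.0435 for Plin2 and 0.0312 for Fitm1 without LT replicate 1, and 0.0145 for Plin3 without LT replicate 2, none of which passed after adjustment. LT replicate 3 also had the lowest summed level of blood markers, 351 CPM, and its RNAs without a poly(A) tail, at 8.76% of reads, were within the range of the other livers. Fpn-LKO replicate 3 had the highest Kupffer cell sum, 510 CPM against 239 to 386 CPM in the other livers. All 5 blood markers had a log2 fold change above 0, with a median of 0.58, and their sums were 407, 941 and 351 CPM in the LT livers against 1006, 1243 and 474 CPM in Fpn-LKO. Their part in the members' levels was not tested.

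**Figure D3:**
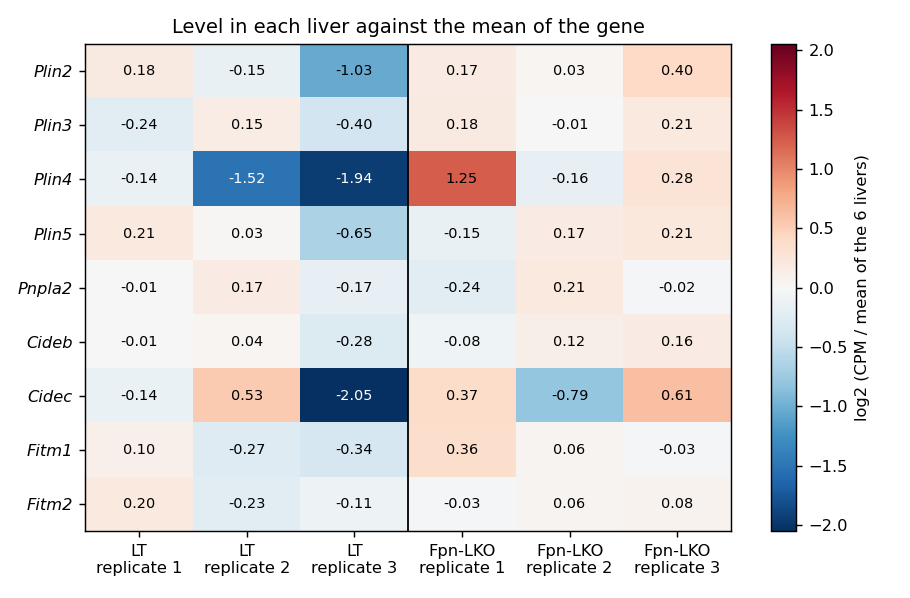
Level of each tested member in each liver as log2 of its CPM over the gene's mean of the 6 livers (colour and printed value), with LT on the left of the line and Fpn-LKO on the right. LT replicate 3 is below 0 for all 9 members, down to -2.05 for Cidec, and Fpn-LKO replicate 1 reaches 1.25 for Plin4.

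Per length, Plin2 was the most abundant member in all 6 livers, with 434, 346 and 177 FPKM in LT and 433, 383 and 492 FPKM in Fpn-LKO. The next level was shared by Plin5 (19.2 to 37.2 FPKM), Cideb (20.5 to 28.7 FPKM), Fitm2 (21.3 to 28.9 FPKM) and Fitm1 (15.2 to 26.5 FPKM), whose ranges overlapped. Plin5 was above Cideb in 5 of 6 livers, and Cideb was above Fitm2 in 4 of 6. Plin3 followed at 10.1 to 16.3 FPKM, below Fitm1 in every liver. Plin4 ran from 1.98 to 20.7 FPKM, Pnpla2 from 4.86 to 6.69 FPKM and Cidec from 0.900 to 5.90 FPKM, and their ranges overlapped. Cidea was last in each liver, at 0.170 FPKM or less, and the deposited TPM gave the members the same order.

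**Figure D4:**
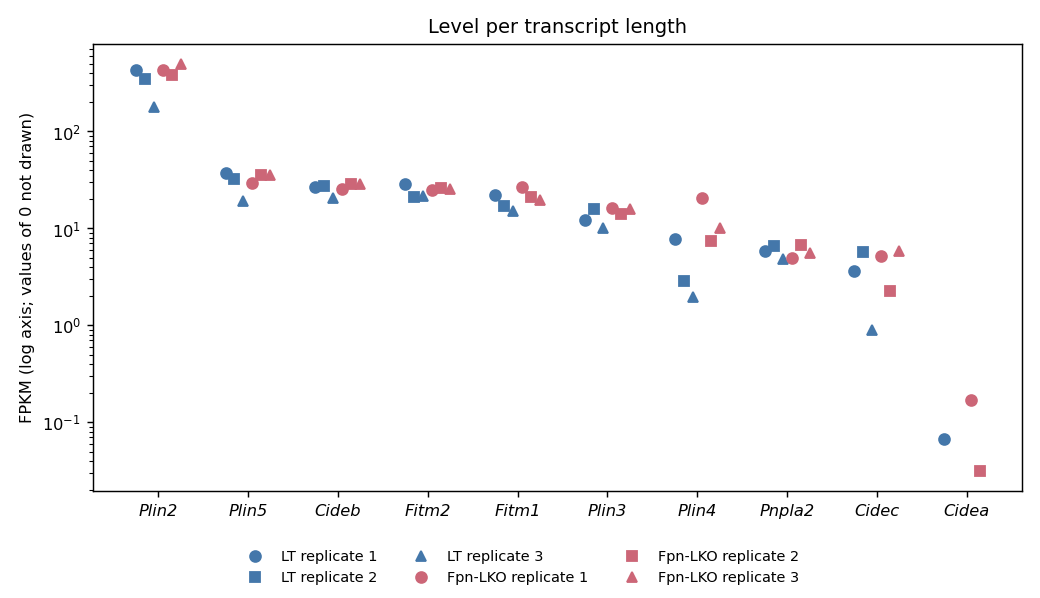
Deposited FPKM of each member (log axis, ordered by the mean of the 6 livers, values of 0 not drawn), with LT in blue and Fpn-LKO in red. Plin2 stands above 177 FPKM in every liver, and the ranges of the members from Plin5 to Cidec overlap with their neighbours.

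Within the perilipins, Plin2 took 85.0% to 88.8% of the summed FPKM in every liver. The share of Plin4 was 1.59%, 0.719% and 0.951% in LT and 4.14%, 1.69% and 1.82% in Fpn-LKO. All Fpn-LKO livers were thus above all LT livers, with LT replicate 1 close to Fpn-LKO replicate 2. It was the only share within the 3 families to separate the groups, and Plin4 in CPM did not. Its exact permutation p was 0.1, the smallest that 3 against 3 livers allow. In CPM, 10.6% of all tested genes separated the groups, and no such background was computed for shares. Plin5 took 5.85% to 9.21% and Plin3 2.47% to 4.86%, with overlapping groups. The ratio of Plin4 to Plin5 in FPKM was 0.211, 0.0880 and 0.103 in LT and 0.708, 0.207 and 0.281 in Fpn-LKO, which overlapped between LT replicate 1 and Fpn-LKO replicate 2. Cideb made up 82.4% to 95.8% of the CIDE sum, and the FITM sum was split between Fitm1 (41.2% to 51.8%) and Fitm2. The ratio of Plin2, the coat, to Pnpla2, the lipase, ran from 36.5 in LT replicate 3 to 88.8 in Fpn-LKO replicate 3, with overlap between the groups.

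The partners of the lipase showed no shift that passed the test. Abhd5, which encodes the activator CGI-58, had 21.8, 21.4 and 32.1 CPM in the LT livers against 25.8, 30.1 and 33.5 CPM in Fpn-LKO. G0s2, the inhibitor of the lipase, had 299, 174 and 98.1 CPM in the LT livers against 137, 197 and 297 CPM in Fpn-LKO, a wide spread within both groups. The log2 fold changes were 0.25 (95% interval -0.19 to 0.69) for Abhd5 and 0.14 (95% interval -0.84 to 1.12) for G0s2. The ratio of Pnpla2 to G0s2 in FPKM overlapped between the groups, at 0.0187 to 0.0512. Hilpda, another inhibitor of the lipase, had 1.72 to 6.64 CPM and a log2 fold change of 0.22 (95% interval -0.91 to 1.34). For the lipases of later steps, the log2 fold changes were -0.23 for Lipe, hormone-sensitive lipase, and -0.19 for Mgll, which splits monoglycerides.

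A list of 39 other droplet and lipolysis genes, of which 38 were found in the table and 37 were tested, was balanced between the directions, with 19 above and 18 below 0 and a median log2 fold change of 0.04. None passed the adjusted threshold of the edgeR test. An unadjusted p under 0.05 was found for 1 gene, against 4.8% of all genes. This was Acsl3, an acyl-CoA synthetase that works where droplets form, with 20.7, 17.3 and 12.2 CPM in the LT livers against 9.73, 10.8 and 9.55 CPM in Fpn-LKO. All Fpn-LKO livers were below all LT livers, at a log2 fold change of -0.74 (standard error 0.20, unadjusted p = 0.00672, adjusted p = 0.863 by the edgeR test, exact permutation p = 0.1). Hspa8 was the only other gene of the list without overlap, and it was higher in Fpn-LKO. Its levels were 1362, 1235 and 1288 CPM in the LT livers against 1529, 1551 and 1562 CPM in Fpn-LKO. Of all tested genes, 10.6% separated the groups without overlap. LT replicate 3 was the lowest liver for 10 of these 37 genes. The other genes looked at by role did not pass either, with log2 fold changes of -0.30 for Pnpla3, a droplet protein known from fatty liver genetics, 0.19 for Hsd17b13, another such protein, and 0.21 for Bscl2, the seipin gene of droplet assembly.

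Of 12 genes for transcription factors and cofactors that act on droplet genes, 7 lay above and 5 below 0, and none passed the adjusted threshold by the edgeR test. Ppara, the fatty acid sensor of hepatocytes, had 339 to 511 CPM in the LT livers against 381 to 442 CPM in Fpn-LKO, a log2 fold change of -0.05 (95% interval -0.46 to 0.35). Pparg, the adipogenic receptor that also acts on Plin4 and Cidec, had 6.89, 4.87 and 3.70 CPM in the LT livers against 7.44, 4.80 and 7.24 CPM in Fpn-LKO, with a log2 fold change of 0.33 (95% interval -0.33 to 0.99). Nr1h3, which encodes the oxysterol receptor LXR alpha, had 76.2, 72.7 and 69.8 CPM in the LT livers against 85.1, 85.9 and 86.7 CPM in Fpn-LKO. Its groups did not overlap and its log2 fold change of 0.24 had an unadjusted p of 0.0390 and an adjusted p of 0.982 by the edgeR test. It was the only 1 of the 12 genes with an unadjusted p under 0.05, against 4.8% of all genes. No other gene of the 12 separated the groups without overlap, which 10.6% of all genes did.

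Over the 6 livers, the genes whose log2 CPM followed Plin2 most closely among 12576 genes with a mean of at least 1 CPM were Raph1, Tgoln1, Il1rn, Hjv and Otub2, with Pearson's r of 0.989 to 0.995 and Spearman's rho of 0.94 to 1. Without LT replicate 3 and Fpn-LKO replicate 3, the livers farthest from the median, r was 0.847 to 0.981. For Cidec they were Ppp1r9b, Gm44805, Camk2g, Ptpre and S1pr2, with r of 0.980 to 0.990 and rho of 0.77 for Camk2g to 1 for Gm44805. Their r was 0.823 to 0.994 without LT replicate 3 and Fpn-LKO replicate 2. These are the highest of many correlations over 6 points that share the libraries, and they are given as a description.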

How the data were processed

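Per the labels, total liver RNA of each mouse was made into a stranded library with a poly(A) mRNA kit, whereas the study's methods describe a total-RNA kit with ribosomal RNA removal. The submitters' processing notes name bcl2fastq 2.20.0, FastQC 0.11.7, HISAT2 2.1.0, Bowtie2 2.3.4.1, StringTie 2.1.3b and the build mm10. The authors deposited read counts per RefSeq gene from StringTie without normalization, and FPKM and TPM from the same run, which scale for transcript length and library size. Coverage-derived counts of this kind can divide reads between overlapping genes.

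Genotype and replicate number were taken from the labels. Counts were tested with edgeR 4.0.16 in R 4.3.3 (quasi-likelihood test without robust estimation, TMM scaling, genotype as the only term) over genes with 0 reads in no more than 1 library. Adjusted p-values were over all genes tested (Benjamini-Hochberg). P-values measure the spread between 3 mice per group. Single members were also compared by exact permutation of CPM. FPKM were used for levels of different genes, with no test. Copies were searched with BLAST 2.17.0 in GENCODE transcripts (identity of at least 90% over at least 100 bases). Alternatives were RLE scaling, DESeq2 1.42.0, edgeR's exactTest, other filters, the replicate number as a block, limma 3.58.1 on log2 TPM with a pseudocount of 1 or 0.1 (mean TPM of 1 or more), and leaving out each mouse. The procedure was tested on simulated data.

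The members and the gene lists were chosen with earlier results of these data known. All members and Slc40a1 were named, with droplet genes named by role and any other gene of the droplet and regulator lists with an unadjusted p under 0.05. Hspa8 was named because it separated the groups without overlap. Ldaf1 was not matched in the table.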

Additional observations from a re-analysis of the deposited data

How the results depend on the processing

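The number of members past the adjusted threshold was 0 under all 14 alternatives. The number of all genes called moved from 4 to 72 with DESeq2 (49 higher and 23 lower), to 63 with edgeR's exactTest (44 higher and 19 lower), to 7 with limma on log2(TPM + 0.1), to 6 with limma on log2(TPM + 1) and to 0 with the replicate block, and it was 0 to 6 when each liver was left out. Both limma alternatives leave out genes of low TPM, and they moved the median of all genes to 0.10 and 0.08 on the log2 scale, in that order. Same-numbered livers deviated together little at most (r of 0.13, -0.01 and 0.04 over 17274 genes, against -0.098 to 0.061 for unlike numbers). With 3 livers per group this cannot exclude that the numbers pair the mice. With the replicate block the lowest adjusted p of a member was 0.479, for Plin4. The unadjusted p of that edgeR fit was 0.000333 for Plin4 and 0.0348 for Fitm1. The lowest adjusted p of Plin4 under any alternative was 0.360, with exactTest. Of 306 values of single genes under the alternatives, 290 kept their direction and 16 reversed, and 0 passed the threshold. Under limma, Pnpla2 turned to 0.0690 with a pseudocount of 1 and 0.0749 with 0.1, and Ppara to 0.0719 and 0.0732. Leaving out each liver, the log2 fold change ran from -0.0307 to 0.36 for Plin5, -0.0530 to 0.98 for Cidec, -0.0093 to 0.20 for Fitm2, -0.13 to 0.0946 for Pnpla2, -0.19 to 0.63 for G0s2, -0.36 to 0.0082 for Mgll, -0.53 to 0.56 for Hilpda, -0.18 to 0.11 for Ppara and -0.11 to 0.14 for Slc40a1. The cause was not tested for these reversals. With 3 livers per group, some intervals leave changes of more than 1.5-fold in either direction undecided. Among the droplet and lipolysis genes named here, these are the intervals of Cidec, G0s2, Hilpda and Pnpla3. The values for Plin2, Plin3, Cideb, Fitm1 and Fitm2 may depend on how shared reads were counted.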
